A study of Homo sapiens with 12 samples.

Results

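The long noncoding RNAs (lncRNAs) described here are 9 genes with a known place in prostate cancer (PCa): PCA3, PCGEM1, PCAT1, SCHLAP1, DRAIC, NEAT1, MALAT1, GAS5 and H19. They were chosen by symbol, and each has 1 row among the 60660 genes of the expression tables. The data are mRNA sequencing libraries of LNCaP cells and 22Rv1 cells, with 3 libraries in each of 4 groups and 12 libraries in all. Both lines were transfected with NC-mimic, a control RNA oligo, or with piR-4447944 mimic, a synthetic RNA oligo that carries the sequence of the PIWI-interacting RNA piR-4447944, which the labels call piR-hsa-4447944 overexpression. All 4 groups grew without added androgen, in 10% CS-FBS, a serum stripped of steroids with charcoal, so no group shows these genes under normal androgen. LNCaP comes from a lymph node metastasis and responds to androgen, and 22Rv1 comes from a relapsed xenograft of castrated mice. Each is a single line, so a difference between them is a difference between 2 lines and not between classes of tumour. The study describes its experiments in general as repeated independently, but the labels do not say whether the 3 libraries of a group came from separate cultures. If they did not, the p-values measure only the spread between these libraries, which may be technical.

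An lncRNA is a transcript that codes for no protein. PCA3, PCGEM1, PCAT1, SCHLAP1 and DRAIC are known mainly from prostate tissue: PCA3 is measured in urine as a marker of PCa, PCGEM1 and DRAIC have been linked to the response to androgen, and SCHLAP1 and PCAT1 have been linked to aggressive disease and cell growth. NEAT1 and MALAT1 are abundant nuclear RNAs of most cell types. The long form of NEAT1 is the scaffold of paraspeckles, which are nuclear bodies, and MALAT1 is found in nuclear speckles. GAS5 carries small nucleolar RNAs in its introns and is turned over with translation, and H19 is an imprinted RNA that is expressed in the embryo and silenced in most adult tissue.

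The annotation of hg38 (GENCODE release 44) places 3 of the genes on chromosome 11, namely NEAT1 at chr11:65422774-65445540 and MALAT1 at chr11:65497640-65508073 on the plus strand, and H19 at chr11:1995166-2004552 on the minus strand. SCHLAP1 lies at chr2:180692104-180916939, PCGEM1 at chr2:192749845-192776899, PCA3 at chr9:76691980-76863307 and DRAIC at chr15:69462921-69843120, each on the plus strand. GAS5 lies at chr1:173858559-173868882 on the minus strand. The exons of PCA3 share 1060 bases, or 7.48% of their length, with exons of PRUNE2 on the opposite strand. MALAT1 shares 77.83% of its exonic bases with TALAM1 on the opposite strand, for which the tables have no row. GAS5 shares 2.68% with GAS5-AS1 on the opposite strand. Whether reads were counted by strand was not given in the sources used here, so reads of these partners cannot be told apart from those of the lncRNA where they overlap.

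The 3′ ends of NEAT1 and SCHLAP1 are shown because the long and short forms of NEAT1 are known to end in different ways. The last 30 bases of the short NEAT1 transcript ENST00000670617.1, which has 3301 bases, lie at chr11:65426484-65426513. The last 30 bases of the long transcript ENST00000501122.2, which has 22743 bases, lie at chr11:65445511-65445540. Those of the only SCHLAP1 transcript in the tables, which has 1436 bases, lie at chr2:180916910-180916939. All are on the plus strand of hg38. Capitals mark the polyadenylation signal AATAAA or its variant ATTAAA, or the A-rich tract at the end of the long form, which is known to be cut by RNase P and has no poly(A) tail. Of the short NEAT1 transcripts examined, only ENST00000670617.1 and ENST00000646243.1 hold such a signal in their last 30 bases. The others, such as ENST00000601801.3 with 3524 bases, hold none there, so the short end printed does not stand for all.
NEAT1 short form: tcttcccctttacagcacaAATAAAgtttg
NEAT1 long form: ctgtgaaagagtgagcaggAAAAAGCAAAA
SCHLAP1: gagcccATTAAAcctctttcacttataaat

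The exons were also searched for ATAGCTT, which is complementary to bases 2 to 8 of piR-4447944 counted from its 5′ end, because the mimic can pair with RNA through such a stretch. The search used every transcript of the 9 genes in the tables that the annotation holds, which was all of them except 1 of the 17 of MALAT1, on the transcript strand. MALAT1 held 1 match, in 6 of 16 transcripts, at chr11:65499218-65499224, and the window chr11:65499208-65499234 around it is printed with the match in capitals.
MALAT1 match: cgtaattttaATAGCTTaagattttaa
PCAT1 held the letters in 1 of its 32 transcripts, and the other 7 genes held them in none. Of 56357 annotated lncRNA transcripts, 5.332% hold the same 7 letters, as do 18.421% of the 38 lncRNA transcripts within 10% of the length of the longest MALAT1 transcript, 10434 bases. A match is a description of the sequence and not a binding site.

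The depth was 16428643 to 19739559 expected counts per library in LNCaP with NC-mimic, 14894247 to 17223286 in LNCaP with piR-4447944 mimic, 12161091 to 22179601 in 22Rv1 with NC-mimic and 14207488 to 17838258 in 22Rv1 with piR-4447944 mimic. The markers of luminal prostate cells matched the labels in both lines: KRT18, a keratin of luminal cells, was between 330.08 and 557.53 TPM in all 12 libraries. KLK3, the androgen target that encodes PSA, was between 1827.51 and 2267.96 TPM in LNCaP and between 24.8 and 53.42 TPM in 22Rv1. The basal markers KRT5, KRT14 and TP63 stayed below 1 TPM, as did the endothelial and leukocyte markers PECAM1 and PTPRC. Of the stromal markers, COL1A1, a collagen gene, was between 25.01 and 42.87 TPM in LNCaP and between 4.23 and 21.68 TPM in 22Rv1, and DCN was between 0 and 2.89 TPM in the 12 libraries. The 2 libraries of 22Rv1 that carry replicate number 3 stand apart. Their chi-square per gene against the other libraries of their group was between 41.35 and 117.91, and that of all other pairs within a group was between 3.56 and 16.5. Results in 22Rv1 are therefore also given without them where they move most.

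Levels are given as TPM, the usual abundance unit of RNA sequencing, which are scaled for transcript length, and tests were run on counts. A gene was called when its adjusted p was under 0.05 in edgeR's quasi-likelihood test, with the adjustment of Benjamini and Hochberg over all genes tested. The differences between the lines come first. In the NC-mimic libraries, 6 of the 9 lncRNAs were called lower in 22Rv1 and 2 were called higher, against 27.5% lower, 30.9% higher and 58.4% called in all of the 17497 genes tested. In the piR-4447944 mimic libraries, which share no library with the former, 7 were called lower and 1 higher, against 24.2%, 28.2% and 52.4% of 17283 genes. All 9 lncRNAs had groups that did not overlap in CPM (counts scaled to library size) in both comparisons, as did 67.2% and 64.5% of all genes tested. The prostate-linked RNAs and the nuclear RNAs were higher in LNCaP, and GAS5 and H19 were higher in 22Rv1. In such bulk libraries, fewer cells that express a gene and less RNA per cell cannot be told apart.

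**Figure D1:**
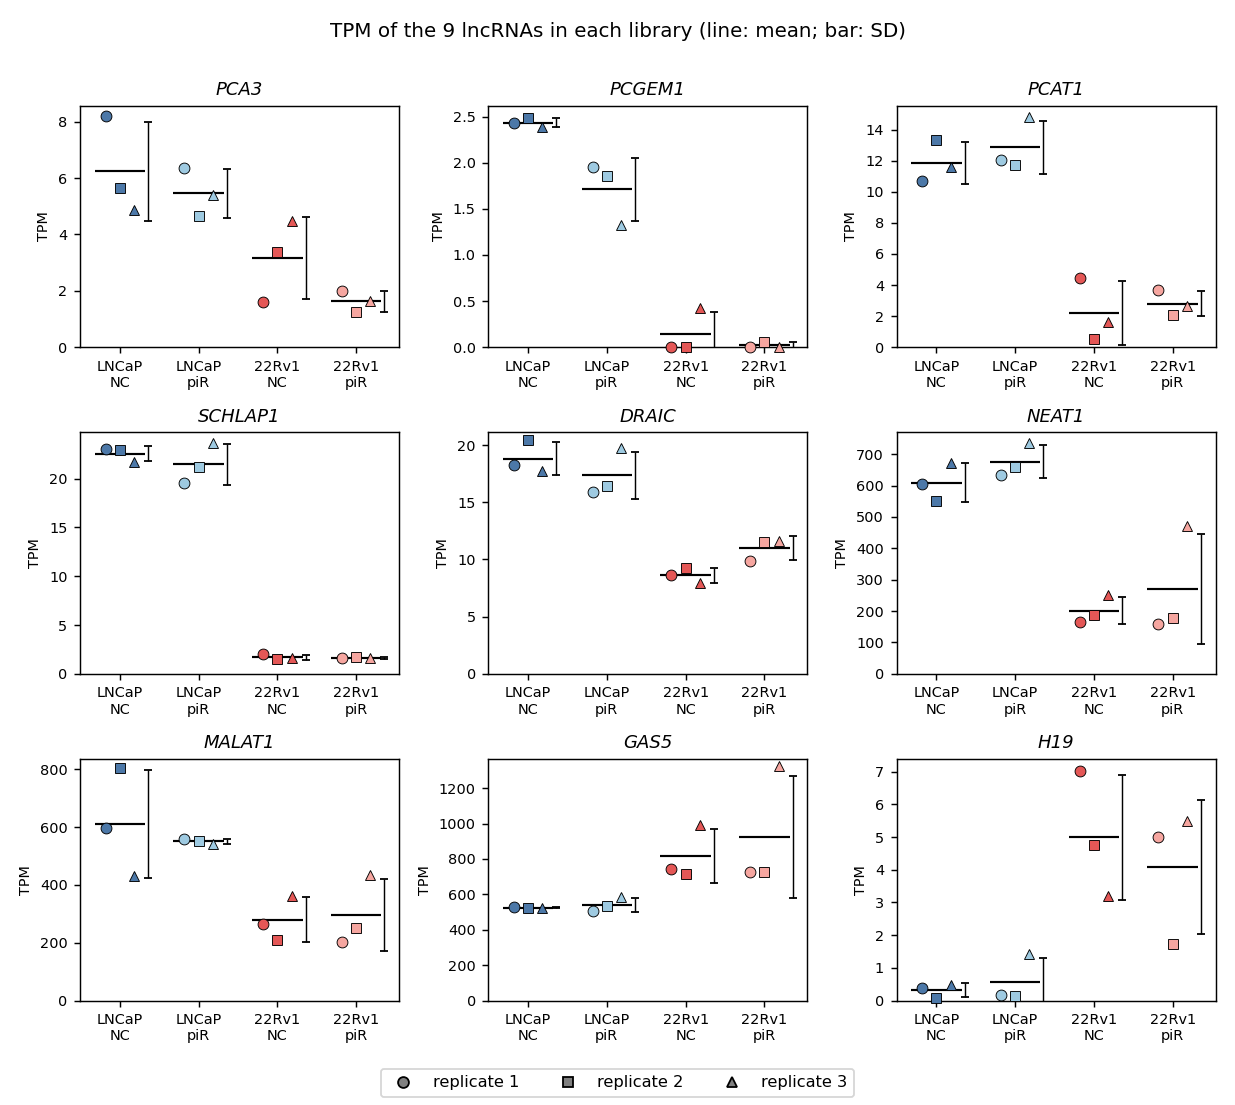
TPM of each lncRNA (vertical axis, from 0) in the 12 libraries, by cell line and mimic, with 1 point per library, a line at the mean of 3 and a bar for the SD. PCGEM1 and SCHLAP1 sit near 0 in 22Rv1, H19 sits near 0 in LNCaP, and replicate 3 is the highest point of NEAT1, MALAT1 and GAS5 in both 22Rv1 groups.

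SCHLAP1 separated the lines in every library. It was at 23.05, 22.94 and 21.75 TPM in the LNCaP replicates that received NC-mimic and at 1.99, 1.51 and 1.64 TPM in those of 22Rv1. With piR-4447944 mimic it was at 19.54, 21.20 and 23.63 TPM in LNCaP and at 1.59, 1.70 and 1.59 TPM in 22Rv1. The lowest LNCaP library was thus far above the highest 22Rv1 library. The log2 fold change of 22Rv1 over LNCaP was -3.65 ± 0.21 (SE) with NC-mimic (adjusted p = 4.943e-06, edgeR's quasi-likelihood test, Benjamini-Hochberg adjustment) and -3.71 ± 0.20 with piR-4447944 mimic (adjusted p = 2.986e-05, same test). UBE2E3, the ubiquitin-conjugating enzyme gene beside SCHLAP1, was called in the other direction, with log2 fold changes of 0.81 ± 0.12 and 1.02 ± 0.15.

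PCGEM1 was the lowest of the prostate-linked RNAs. It was at 2.43, 2.49 and 2.39 TPM in LNCaP with NC-mimic and at 1.96, 1.86 and 1.32 TPM with piR-4447944 mimic. In 22Rv1 it had 0, 0 and 2 counts with NC-mimic and 0, 1 and 0 counts with the mimic, so at most 1 library of each group detected it. Over the summed counts, 93 against 2 with NC-mimic and 61 against 1 with the mimic, the depth-scaled ratio of LNCaP to 22Rv1 was 41.85 with a 95% counting interval of 11.26 to 350.7, and 60.54 with an interval of 10.47 to 2430. These intervals cover counting error only. The fit called the difference in both comparisons, with an adjusted p of 0.001673 and 0.001351 (edgeR's quasi-likelihood test, Benjamini-Hochberg adjustment).

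PCAT1, on chromosome 8, was at 10.70, 13.32 and 11.58 TPM in LNCaP with NC-mimic and at 12.05, 11.75 and 14.82 TPM with the mimic. In 22Rv1 it was at 4.47, 0.53 and 1.59 TPM, then at 3.66, 2.08 and 2.62 TPM. The NC-mimic libraries of 22Rv1 spread widely, from 8 to 65.12 expected counts, and none reached the level of LNCaP. The log2 fold change was -2.94 ± 0.54 with NC-mimic (adjusted p = 0.001895, edgeR's quasi-likelihood test, Benjamini-Hochberg adjustment) and -2.51 ± 0.28 with the mimic (adjusted p = 0.0004625, same test). MYC, the growth gene on the same chromosome, was also called lower in 22Rv1, with log2 fold changes of -0.44 ± 0.12 and -0.67 ± 0.13.

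DRAIC was at 18.22, 20.47 and 17.76 TPM in LNCaP with NC-mimic and at 15.93, 16.46 and 19.71 TPM with the mimic. In 22Rv1 it was at 8.65, 9.26 and 7.94 TPM, and at 9.82, 11.55 and 11.61 TPM. Its log2 fold changes between the lines were -1.18 ± 0.13 (adjusted p = 0.0001641, edgeR's quasi-likelihood test, Benjamini-Hochberg adjustment) and -1.01 ± 0.16 (adjusted p = 0.002037, same test). Leaving out any 1 library kept the NC-mimic value between -1.25 and -1.13.

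In LNCaP, PCA3 lay between PCAT1 and PCGEM1. It was at 8.22, 5.64 and 4.87 TPM with NC-mimic and at 6.37, 4.64 and 5.39 TPM with the mimic. In 22Rv1 with NC-mimic it was at 1.60, 3.38 and 4.48 TPM, and with the mimic at 1.98, 1.26 and 1.63 TPM. The highest 22Rv1 library with NC-mimic, replicate 3, came close to the lowest LNCaP library. The log2 fold change between the lines was -1.28 ± 0.58 with NC-mimic, which was not called (adjusted p = 0.08974, edgeR's quasi-likelihood test, Benjamini-Hochberg adjustment), and -1.82 ± 0.31 with the mimic, which was (adjusted p = 0.002681, same test). Without the NC-mimic library of replicate 3, the first became -2.21 and was called (adjusted p = 0.0002287, same test).

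PRUNE2, the gene that overlaps PCA3 on the opposite strand, was also lower in 22Rv1. It was between 321.94 and 347.29 TPM in LNCaP with NC-mimic and between 299.93 and 310.97 TPM with the mimic. In 22Rv1 it was at 40.68, 32.28 and 87.31 TPM with NC-mimic, highest in replicate 3 as PCA3 was, and between 36.53 and 40.01 TPM with the mimic. Its log2 fold change between the lines was -2.83 ± 0.39 and -3.26 ± 0.12, called in both. The count of PCA3 was between 0.286% and 0.504% of that of PRUNE2 in LNCaP libraries and between 0.572% and 1.488% in 22Rv1 libraries, so the share was higher in every 22Rv1 library than in any LNCaP library. Where the shared bases lie, reads of PRUNE2 could enter the count of PCA3, and this was not tested.

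NEAT1 was at 605.68, 550.05 and 673.63 TPM in LNCaP with NC-mimic and at 635.33, 657.91 and 737.18 TPM with the mimic. In 22Rv1 it was at 166.14, 187.66 and 251.86 TPM with NC-mimic and at 158.39, 177.43 and 471.18 TPM with the mimic. All 22Rv1 libraries lay below all LNCaP libraries, but the last value was far from the others of its group. The log2 fold change between the lines was -1.81 ± 0.21 with NC-mimic (adjusted p = 0.0001717, edgeR's quasi-likelihood test, Benjamini-Hochberg adjustment) and -1.50 ± 0.42 with the mimic (adjusted p = 0.02192, same test). Without replicate 3 of 22Rv1 these were -2.09 and -2.21.

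MALAT1 was at 598.02, 803.72 and 432.53 TPM in LNCaP with NC-mimic, the widest spread of any of the abundant RNAs in that line, and at 559.71, 551.35 and 543.55 TPM with the mimic. In 22Rv1 it was at 265.97, 208.83 and 362.95 TPM and at 201.23, 249.73 and 435.84 TPM. The log2 fold change between the lines was -1.40 ± 0.23 (adjusted p = 0.001184, edgeR's quasi-likelihood test, Benjamini-Hochberg adjustment) and -0.97 ± 0.30 (adjusted p = 0.03065, same test). The calls of NEAT1 and MALAT1 in the mimic libraries were lost in 5 of 6 fits that left out 1 library, each time without a change of direction. The exception for each was the fit without replicate 3 of 22Rv1, where the values were -2.21 and -1.41.

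GAS5 had the opposite order. It was at 527.18, 521.67 and 521.94 TPM in LNCaP with NC-mimic, an SD of 3.11 TPM, and at 504.25, 533.27 and 583.78 TPM with the mimic. In 22Rv1 it was at 745.33, 715.18 and 992.52 TPM and at 728.67, 725.83 and 1322.05 TPM. No 22Rv1 library was below any LNCaP library. The log2 fold change was 0.47 ± 0.13 with NC-mimic (adjusted p = 0.01248, edgeR's quasi-likelihood test, Benjamini-Hochberg adjustment) and 0.52 ± 0.21 with the mimic, which was not called (adjusted p = 0.07778, same test). Without replicate 3 of 22Rv1, the mimic libraries gave 0.23 and were called (adjusted p = 0.007655, same test), where the spread was smaller. Without replicate 1 or replicate 3 of LNCaP with NC-mimic, the first difference was 0.46 and 0.43 and was not called (adjusted p = 0.05482 and 0.05608, same test).

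H19 had 3, 2 and 2 counts in LNCaP with NC-mimic and 3, 1 and 7 counts with the mimic. In 22Rv1 it had 74, 53 and 19 counts, which were 7.02, 4.75 and 3.21 TPM, and 33, 25 and 52 counts with the mimic, which were 5.00, 1.72 and 5.50 TPM. Every 22Rv1 library was above every LNCaP library. The ratio of 22Rv1 to LNCaP from the summed counts was 23.18 with a 95% counting interval of 10.97 to 58.66 with NC-mimic, and 10.08 with an interval of 5.417 to 20.77 with the mimic. The fit called both, with an adjusted p of 0.0002982 and 0.006214 (edgeR's quasi-likelihood test, Benjamini-Hochberg adjustment). IGF2, the imprinted gene beside H19 that is expressed from the other parental copy, stayed between 0 and 1.21 TPM in the 12 libraries and was not called, with -0.26 ± 0.79 and -1.54 ± 0.90 on the log2 scale.

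**Figure D2:**
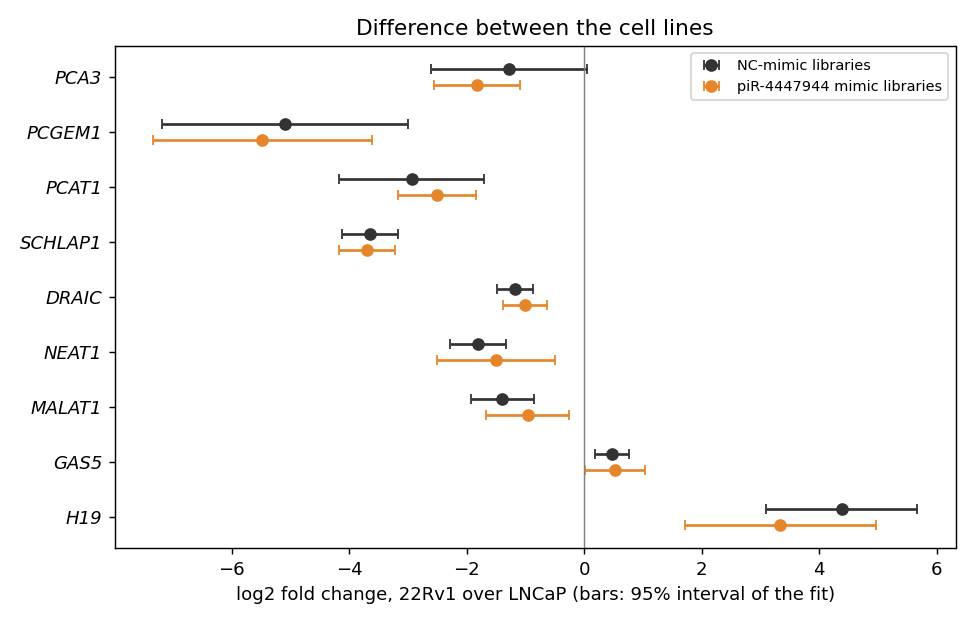
Log2 fold change of 22Rv1 over LNCaP (horizontal axis) for each lncRNA, fitted in the 6 NC-mimic libraries and in the 6 piR-4447944 mimic libraries, with bars for the 95% interval of the fit. Only the interval of PCA3 with NC-mimic, from -2.61 to 0.05, reaches across 0, and PCGEM1 and H19 rest on few counts in the line where they are low.

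The order of the 9 RNAs by mean TPM differed between the lines. In LNCaP with NC-mimic, MALAT1 and NEAT1 had means of 611 and 610 TPM and their libraries overlapped, GAS5 followed at 524 TPM within the range of MALAT1, and then SCHLAP1, DRAIC, PCAT1, PCA3, PCGEM1 and H19 followed with no overlap between neighbours. In 22Rv1 with NC-mimic, GAS5 led at 818 TPM, above all libraries of MALAT1, and MALAT1 and NEAT1 overlapped at 279 and 202 TPM. DRAIC at 8.62 TPM was the highest of the other RNAs there. H19, PCA3, PCAT1 and SCHLAP1 had means from 4.99 down to 1.71 TPM, and neighbours in that order overlapped.

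Against this background of large differences between the lines, the comparison of piR-4447944 mimic with NC-mimic asks whether the mimic moved the same RNAs within a line. In LNCaP, 8 of the 9 lncRNAs passed the filter on low counts, and H19 did not, with 11 counts against 7. None of the 8 was called by edgeR's quasi-likelihood test, and 0 of 8 had an unadjusted p under 0.05, against 0.0% called and 2.67% with an unadjusted p under 0.05 in all 16244 genes tested. DESeq2 also called 0 of the lncRNAs. With the cut-offs of the authors (an unadjusted p under 0.05, an absolute log2 fold change over 0.2) there were 0 as well, against 2.22% of all genes. This count rests on the libraries used: without replicate 3 of the NC-mimic group, NEAT1 at 0.23 and MALAT1 at -0.25 met these cut-offs, with unadjusted p of 0.004013 and 0.02077 and adjusted p of 0.4849 and 0.6004 (edgeR's quasi-likelihood test). That fit called 2 of 16658 genes. The share of all genes that met the cut-offs in it was not computed, so the lncRNAs cannot be set against it.

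PCGEM1 was the only lncRNA whose LNCaP groups did not overlap in CPM, against 7.86% of all genes tested. It had 30, 38 and 25 counts with NC-mimic and 20, 20 and 21 with the mimic, and the exact two-sided permutation p was 0.1, the smallest that 3 against 3 libraries allow. Its log2 fold change was -0.41 with a 95% interval of -1.13 to 0.32. PCA3 had -0.30 with an interval of -0.72 to 0.12. NEAT1 was at 0.15 ± 0.07, with an interval of -0.0048 to 0.31, and its unadjusted p was 0.05627 by edgeR, 0.04008 by DESeq2 and 0.02027 by edgeR with the replicate number as a block. The adjusted p was 0.9994, 0.9996 and 0.9999 in these fits of edgeR, DESeq2 and edgeR with the block. Equal replicate numbers were not taken as pairs in LNCaP, so the block there rests on a pairing that is not known. The remaining 5 were closer to 0 or wider: PCAT1 at 0.18 ± 0.14, MALAT1 at -0.10 ± 0.13, SCHLAP1 at -0.06 ± 0.11, DRAIC at -0.04 ± 0.10 and GAS5 at 0.03 ± 0.07. The interval of GAS5, from -0.11 to 0.18, was the narrowest among the 8.

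In 22Rv1, 8 of the 9 lncRNAs were tested, and PCGEM1 was not, with 1 count against 2. None was called by edgeR's quasi-likelihood test or by DESeq2, and 0 of 8 had an unadjusted p under 0.05, against 0.0% called and 1.48% under 0.05 in all 16898 genes tested. With the cut-offs of the authors there were 0, against 1.48%. No lncRNA had groups that did not overlap in CPM, against 8.78% of all genes. PCA3 was at -0.88 with a 95% interval of -2.46 to 0.70, and PCAT1 at 0.63 with an interval of -0.95 to 2.20. NEAT1 was at 0.43 ± 0.44, MALAT1 at 0.30 ± 0.33, H19 at -0.26 ± 0.51, SCHLAP1 at -0.14 ± 0.43, DRAIC at 0.11 ± 0.20 and GAS5 at 0.06 ± 0.24. The standard errors of NEAT1, MALAT1 and GAS5 in 22Rv1 were several times those in LNCaP. Replicate 3 of both 22Rv1 groups deviated together, but the values did not settle how replicates 1 and 2 pair. Paired by number, PCAT1 and MALAT1 were higher in CPM with the mimic in each of the 3 pairs. For PCAT1 this depends on the pairing, at 2.962 CPM in replicate 1 with NC-mimic and 1.896 CPM in replicate 2 with the mimic. How many of all genes did the same was not computed. With the replicate block PCAT1 was at 0.92 (unadjusted p = 0.1496, edgeR) and MALAT1 at 0.26 (unadjusted p = 0.08509, edgeR), and the adjusted p was 0.869 for both. PCAT1 ranged from 0.23 without replicate 2 of the NC-mimic group to 1.58 without replicate 1 of that group.

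The difference between the mimic effects of the lines was tested as an interaction over all 12 libraries. None of the 9 was called, against 0.0% called and 3.26% with an unadjusted p under 0.05 among 18720 genes, and 0 of the 9 were under 0.05. Without replicate 1 of 22Rv1 with NC-mimic, PCAT1 had an interaction of 1.42 and an unadjusted p of 0.008929 (edgeR's quasi-likelihood test), with an adjusted p of 0.9883. H19 had the largest interaction, -1.05 with an interval of -3.02 to 0.91, and rests on few counts in LNCaP. PCA3 was at -0.56 with an interval of -2.13 to 1.00, and the narrowest interval was that of DRAIC, -0.27 to 0.58 around 0.15.

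**Figure D3:**
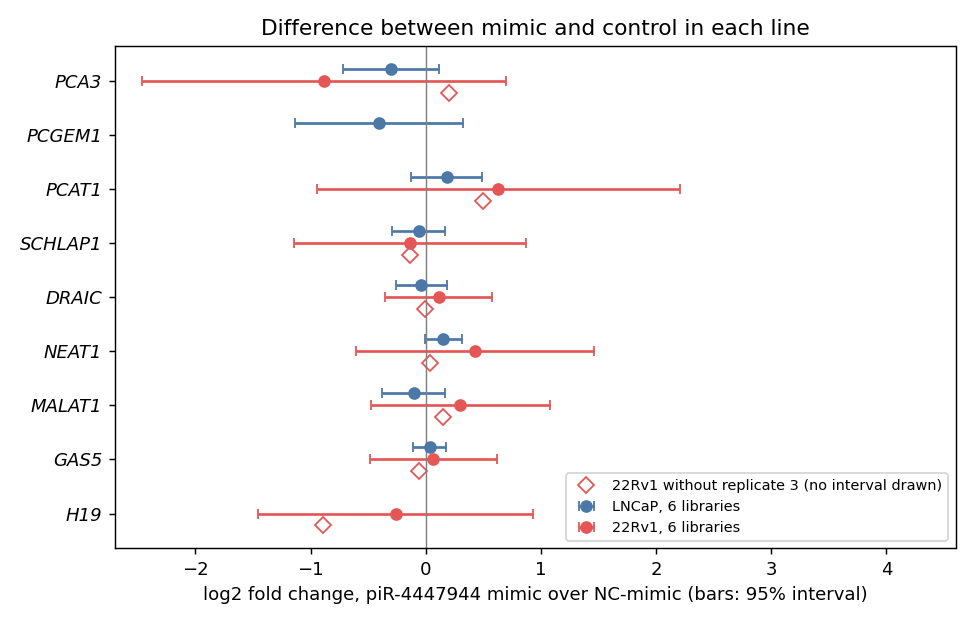
Log2 fold change of piR-4447944 mimic over NC-mimic (horizontal axis) in LNCaP and in 22Rv1, with bars for the 95% interval of the fit, and open diamonds for 22Rv1 without both libraries of replicate 3. All intervals reach across 0, and for NEAT1 the diamond at 0.04 is far nearer to 0 than the value of 0.43 from 6 libraries.

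NEAT1, MALAT1 and GAS5 moved together in the 2 libraries of 22Rv1 that carry replicate number 3. On the log2 CPM scale, relative to the NC-mimic mean of the line, NEAT1 was at 0.49, MALAT1 at 0.46 and GAS5 at 0.28 in replicate 3 with NC-mimic. In replicate 3 with piR-4447944 mimic they were at 1.31, 0.96 and 0.54. In the other 4 libraries of 22Rv1 all 3 lay between -0.33 and -0.045. Thus each was highest in replicate 3 of either group, and the mimic library was the farther.

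The same libraries differed in other genes. A list of 19 genes that are raised in low oxygen had a mean deviation of 0.28 in replicate 3 with NC-mimic and one of 2.98 with the mimic, against -1.01 to 0.11 in the other 4 libraries of 22Rv1. VEGFA of that list, the gene of an angiogenic growth factor, was at 194.61 and 1468.24 TPM in these 2 libraries and between 77.02 and 141.16 TPM in the other 4. The 13 mitochondrially encoded genes were at -0.12 and -1.67, against -0.18 to 0.08, so only the mimic library lay outside that range. The mitochondrial share of all counts was 2.231% in replicate 3 with the mimic and between 4.24% and 5.375% in the other 11 libraries. The part of these differences in the levels of NEAT1, MALAT1 and GAS5 was not tested. In the mimic comparison of 22Rv1, all 19 low-oxygen genes had a log2 fold change above 0 and a median of 1.57. The median over all genes was -0.01, and 0 of the 19 were called, against 0.0% of all genes. Only replicate 3 of the mimic group was far above the control. Replicates 1 and 2 had mean deviations of -1.01 and 0.09 with the mimic and of -0.39 and 0.11 with NC-mimic.

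**Figure D4:**
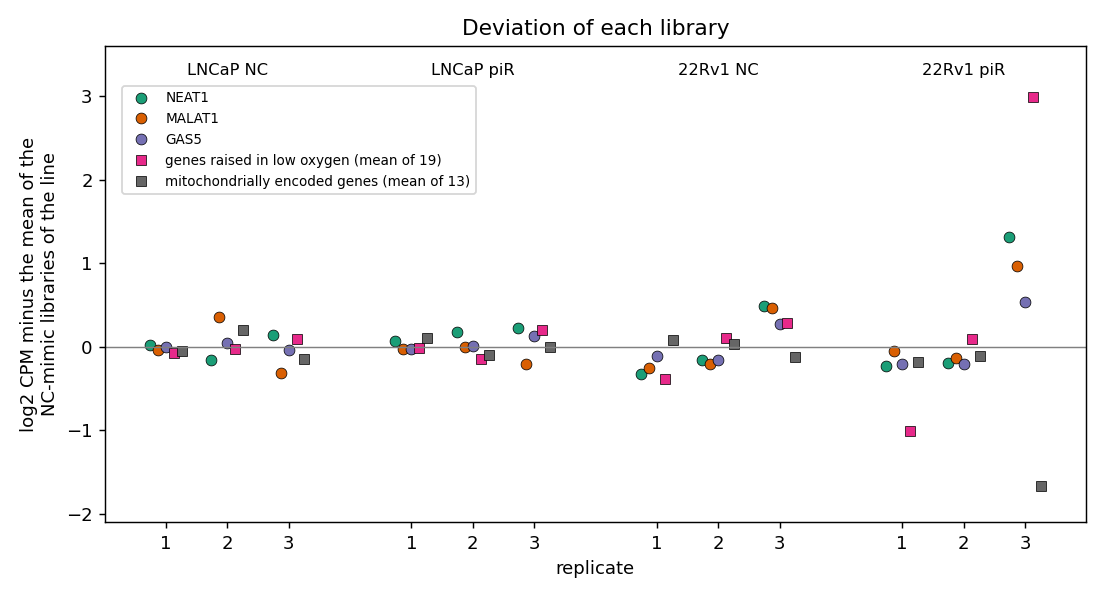
Deviation of each library on the log2 CPM scale (vertical axis) against the NC-mimic mean of its line, for NEAT1, MALAT1, GAS5, the mean of 19 genes raised in low oxygen and the mean of 13 mitochondrially encoded genes, by group and replicate. Replicate 3 of 22Rv1 with piR-4447944 mimic stands apart in all 5, with NEAT1 at 1.31, the low-oxygen genes at 2.98 and the mitochondrial genes at -1.67.

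Without the replicate 3 library of the mimic group alone, the mimic comparison of 22Rv1 gave -0.25 for NEAT1, -0.13 for MALAT1 and -0.22 for GAS5, so all 3 turned their direction. Without both libraries of replicate 3, NEAT1 was at 0.04, MALAT1 at 0.15, GAS5 at -0.06 and H19 at -0.89 in place of -0.26, and none was called. Over the 12 libraries, with the mean of each line taken off, NEAT1 and GAS5 had a Pearson correlation of 0.942, MALAT1 and GAS5 one of 0.866, and NEAT1 and MALAT1 one of 0.797. Over the 10 libraries without replicate 3 of 22Rv1 these were 0.007, -0.064 and -0.701. The correlations of the 12 libraries thus rest on those 2.

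The prostate-linked RNAs did not share this order. In replicate 3 of 22Rv1 with NC-mimic, PCA3 was 1.296 above the mean of its group on the log2 CPM scale, and in replicate 3 with the mimic it was at -0.86. DRAIC was at -0.11 and 0.26, and SCHLAP1 at -0.04 and -0.15. H19 was at -0.72 and 0.35 in the same libraries.

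For each lncRNA that passed the filter over the 12 libraries and was tested in both lines, the genes with the most similar pattern were ranked by the Pearson correlation of log2 CPM among the 18719 other genes, with the mean of each line taken off. For NEAT1 these were JUN at 0.995, ARHGEF2 at 0.990 and ERN1 at 0.988. JUN, a subunit of the transcription factor AP-1, was at 78.89 and 152.91 TPM in replicate 3 of 22Rv1 and between 40.13 and 56.55 TPM in the other 10 libraries. Without the 2 libraries the correlation of NEAT1 with JUN was 0.936, that with ARHGEF2 0.939 and that with ERN1 0.783. For GAS5 they were KLF10, RBP5 and BX276092.9, from 0.986 to 0.977, and without the 2 libraries their values lay between 0.284 and 0.622.

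For MALAT1 the closest were LINC01145, FBXO28 and RAB6A at 0.950, 0.950 and 0.948, which became 0.728, 0.865 and 0.718. PCAT1 was closest to FIG4 at 0.963, BLNK at 0.954 and H2BC7 at 0.940, and these did not drop without the 2 libraries. DRAIC was closest to CELSR3, CPT1B and TMEM198B, from 0.933 to 0.895. SCHLAP1 was closest to LINC02572, FGFR2 and KPNA6, from 0.888 to 0.850, and PCA3 to SLC39A14, XRRA1 and CDYL2, from 0.915 to 0.908. Without the 2 libraries the values were 0.847 to 0.872 for DRAIC, 0.868 to 0.910 for SCHLAP1 and 0.738 to 0.788 for PCA3. The genes named are those with the highest of many correlations over 12 libraries that share 2 unusual ones, and are given as a description.

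The tables also give the mean transcript length of each gene, which RSEM computes from the shares it assigns to the annotated transcripts. It was shorter in 22Rv1 for NEAT1 and GAS5 in both comparisons of the lines. NEAT1 had 3790, 3719 and 3569 bases in LNCaP with NC-mimic against 3001, 2887 and 3324 bases in 22Rv1, and 3720, 3853 and 3543 against 3329, 3152 and 3340 bases with the mimic. The groups did not overlap in either comparison, nor did those of 25.7% and 25.3% of all genes tested whose length varied, and the exact two-sided permutation p was 0.1 in each, the smallest possible. The mean difference was -622 bases with NC-mimic and -432 bases with the mimic.

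For NEAT1 this length bears on the forms shown above. The annotated transcripts in the tables run from 512 to 3524 bases, apart from the long form of 22743 bases. A mean length of 3853 bases, the highest of the 12 libraries, allows the long form between 1.71% and 15.03% of NEAT1 transcripts, and the lowest, 2887 bases, allows 0% to 10.69%. In all 6 LNCaP libraries the mean exceeded the second longest transcript, so that the estimate there includes at least 0.1% of the long form, while in the 6 libraries of 22Rv1 the lower bound was 0%. These bounds follow from RSEM's assignment. Whether the libraries selected RNA by its poly(A) tail, which the long form lacks, was not given in the sources used here.

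GAS5 had 733, 749 and 712 bases in LNCaP with NC-mimic against 670, 664 and 656 bases in 22Rv1, a difference of -67.8 bases, and -68.7 bases with the mimic. MALAT1 was shorter in 22Rv1 with NC-mimic without overlap, by -587 bases, but overlapped with the mimic. DRAIC overlapped with NC-mimic and was shorter in 22Rv1 with the mimic, by -458 bases. The lines share their annotation, so a mean length that differs reflects another mix of assigned transcripts, and a TPM is divided by that length.

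DRAIC is a case where both the length and the TPM differed. In 22Rv1 it had 2077, 2102 and 2055 bases with NC-mimic and 1869, 1795 and 1953 bases with piR-4447944 mimic, without overlap and with an exact permutation p of 0.1, against 9.16% of genes whose length groups did not overlap. Its TPM were without overlap higher with the mimic, a ratio of 1.28, but its CPM overlapped, at 12.48 ± 1.12 (SD, n = 3) and 13.55 ± 1.37 (SD, n = 3). The part of the length in that ratio was not tested. In LNCaP the lengths of DRAIC, NEAT1, MALAT1 and GAS5 with and without the mimic overlapped, and 9.91% of genes did not.

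**Figure D5:**
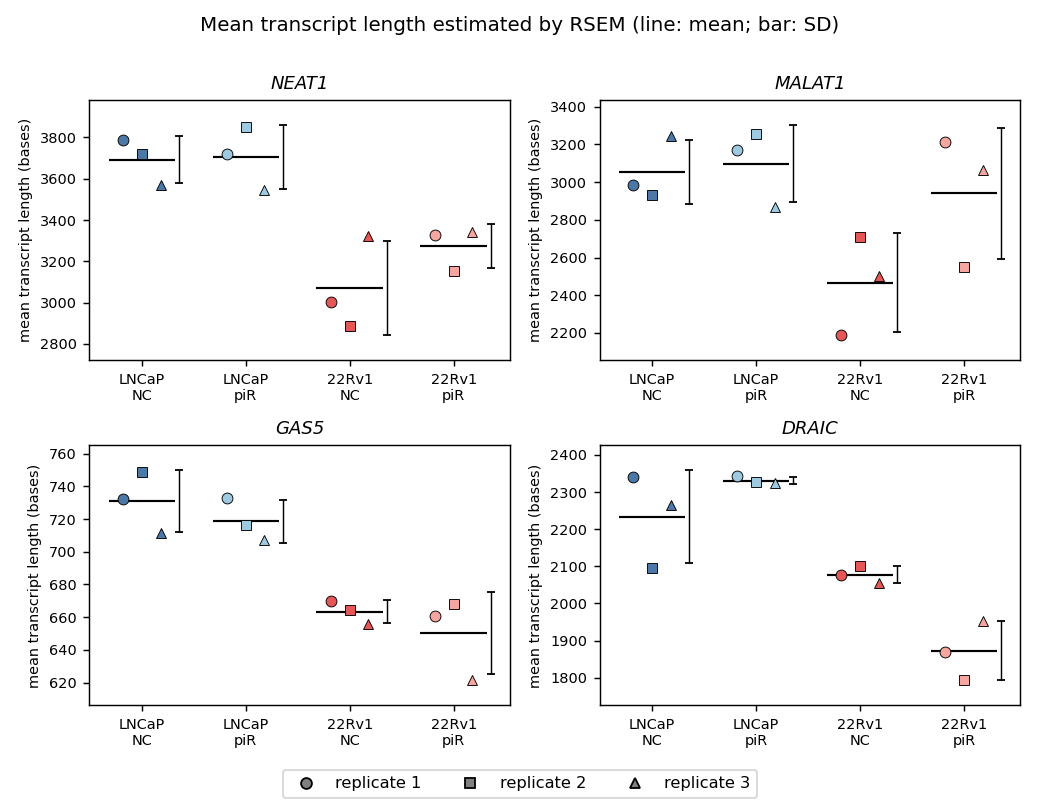
Mean transcript length in bases as RSEM estimates it (vertical axis, not from 0) for NEAT1, MALAT1, GAS5 and DRAIC in the 12 libraries, with 1 point per library, a line at the mean of 3 and a bar for the SD. NEAT1 and GAS5 are shorter in every 22Rv1 library than in any LNCaP library, and DRAIC is shorter in 22Rv1 with the mimic than in all other groups.

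Other lncRNAs of cancer were taken from a list of 38. In the NC-mimic libraries 24 were tested, and 4 were called higher and 9 lower in 22Rv1, against 30.9% higher and 27.5% lower of all genes tested, with a median log2 fold change of -0.02 against 0.01 over all genes. In the mimic libraries 4 were called higher and 8 lower of 23, against 28.2% and 24.2% of all genes. PCAT14, another prostate-linked lncRNA, was between 0 and 0.04 TPM in LNCaP and between 2.50 and 12.15 TPM in 22Rv1, the reverse of SCHLAP1. LINC00511 was called higher in both comparisons, at 2.30 ± 0.49 and 2.39 ± 0.61. DANCR, which was between 370.02 and 426.27 TPM in LNCaP, was between 105.16 and 182.39 TPM in 22Rv1. LINC01138 was at -2.73 ± 0.33 and -2.43 ± 0.29 on the log2 scale. In the mimic comparisons 0 of this list were called in either line, against 0 of 16244 and 0 of 16898 genes tested. The smallest unadjusted p was that of CYTOR in LNCaP, 0.04082 by edgeR's quasi-likelihood test, at 0.85 ± 0.37. Of all genes tested in LNCaP, 2.67% had an unadjusted p under 0.05.

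GAS5 belongs to the host genes of small nucleolar RNAs. Of 13 others, 6 were called higher and 3 lower in 22Rv1 with NC-mimic, with a median of 0.37 against 0.01 over all genes, and 6 higher and 2 lower with the mimic. Of all genes tested, 30.9% were called higher and 27.5% lower with NC-mimic, and 28.2% and 24.2% with the mimic. SNHG5 had the largest difference, from 25.11 to 36.91 TPM in LNCaP to between 370.27 and 440.01 TPM in 22Rv1. SNHG7 was called higher at 1.94 ± 0.16 and 2.10 ± 0.20, and SNHG3 lower at -1.26 ± 0.10 and -1.55 ± 0.20. The 13 hosts had a mean deviation of 0.11 and 0.17 in the replicate 3 libraries of 22Rv1, where GAS5 was at 0.28 and 0.54. For the mimic, 0 of the 13 hosts were called in either line, against 0.0% of all genes tested.

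Of 12 genes of proteins that build paraspeckles on NEAT1, 4 were called higher and 2 lower in 22Rv1 with NC-mimic and 3 higher and 2 lower with the mimic, with medians of 0.16 and 0.12. That is 6 and 5 of 12 called, against 58.4% and 52.4% of all genes tested. HNRNPH3 was higher at 0.88 ± 0.10 and 0.91 ± 0.19, and DAZAP1 at 0.64 ± 0.09 and 0.59 ± 0.10. NONO, a core protein of paraspeckles, was lower at -0.44 ± 0.08 and -0.37 ± 0.09, and SFPQ, another, was not called with NC-mimic at 0.19 ± 0.10. In the replicate 3 libraries of 22Rv1 the mean of the 12 was at -0.07 in both, while NEAT1 was at 0.49 and 1.31. For the mimic, 0 of 12 were called in either line, against 0.0% of all genes tested.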

How the data were processed

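The 12 libraries were grouped by cell line and mimic from the labels, and 9 genes were taken by symbol. The members and gene lists were chosen with earlier results of these data known. Reads were mapped by the authors with STAR 2.7.1a (hg38) and genes were quantified with RSEM 1.3.0. The expected counts deposited for each library are not normalized and divide a read that matches several genes among them, and the TPM deposited by the authors are scaled by length and library. A joint table held the same TPM, with a largest difference of 0. The annotation release, trimming, strand and RNA selection were not given in the sources used here.

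Expected counts were rounded and fitted in R 4.3.3 with edgeR 4.0.16 (TMM, filterByExpr, quasi-likelihood test), 6 libraries per comparison and 12 for the interaction, with Benjamini-Hochberg adjustment over all genes tested and a threshold of 0.05. Standard errors came from the estimate and the test statistic. Single values were compared by exact two-sided permutation tests. Log2 CPM used a prior count of 2. Fits were tested on simulated data. The named genes were the 9 members, the strongest called genes of each list (up to 4 in each direction), or the 2 with the smallest p where none was called, overlapping genes and the 3 most similar genes; values for VEGFA, KLK3, KRT18, IGF2 and SFPQ were added after seeing the data. Alternatives were DESeq2 1.42.0 with and without shrinkage, its size factors, other filters, limma 3.58.1 on log2(TPM + 1), a replicate block, all 12 libraries in a fit, and leaving out libraries. The depth was between 12161091 and 22179601 counts. Sequences and positions came from hg38 with GENCODE release 44, and transcripts were matched without version numbers. Whether equal replicate numbers deviate together was checked by correlation across genes. It was 0.198, 0.167 and 0.355 for replicates 1, 2 and 3 in 22Rv1, which were taken as pairs from the values alone. Between replicates 1 and 2 of the 22Rv1 groups it was 0.117 and 0.191, so the values do not settle how these pair. In LNCaP it was 0.021, 0.005 and 0.189 for replicates 1, 2 and 3, which were not taken as pairs. The main fits used no pairs in either line, and the replicate block was an alternative. Some items set in advance are not reported here.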

Additional observations from a re-analysis of the deposited data

How the results depend on the processing

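With at least 10 counts in every library, 6 lncRNAs were left to test between the lines with NC-mimic. Of these 5 were called, against 7869 of 13663 genes, where fewer genes were tested. The replicate block changed no call of the 9 lncRNAs: 8 of 9 were called between the lines with either mimic and 0 for the mimic in either line. Of all genes, the block called 9713 of 17497 between the lines with NC-mimic and 8276 of 17283 with piR-4447944 mimic. It called 0 genes for the mimic in either line. With replicate 3 of 22Rv1 left out of both groups, the mimic comparison of 22Rv1 turned to 0.20 for PCA3, -0.0058 for DRAIC and -0.062 for GAS5, and the interaction turned to 0.53 for PCA3, 2.79 for PCGEM1, -0.13 for NEAT1 and -0.11 for GAS5. On log2(TPM + 1), which understates the change of low genes, limma turned the interaction of PCGEM1 to 0.21 and that of SCHLAP1 to 0.031. None of these values was called, and the cause was not tested.

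PCA3 was called between the lines with NC-mimic without a low-count filter (adjusted p = 0.03812, edgeR) and by DESeq2 (adjusted p = 0.03547). GAS5 was called between the lines with piR-4447944 mimic by limma (adjusted p = 0.0457) and with all 12 libraries in the edgeR fit (adjusted p = 0.03252). Leaving out each library in turn, the number of lncRNAs called between the lines was 7 to 9 with NC-mimic and 6 to 9 with the mimic, and it was 0 in all fits for the mimic. Over all genes, the same fits called 8453 to 12117 between the lines with NC-mimic and 6888 to 12494 with the mimic. For the mimic they called 0 to 2 genes in LNCaP and 0 in 22Rv1. In those fits the mimic value ranged in LNCaP from -0.14 to 0.017 for DRAIC, -0.25 to 0.094 for MALAT1 and -0.01 to 0.060 for GAS5. In 22Rv1 it ranged from -1.32 to 0.027 for PCA3, -0.25 to 0.72 for NEAT1, -0.13 to 0.57 for MALAT1, -0.22 to 0.22 for GAS5 and -0.61 to 5e-04 for H19. The interaction ranged from -1.01 to 0.35 for PCA3, -2.33 to 2.34 for PCGEM1, -0.15 to 0.039 for SCHLAP1, -0.41 to 0.57 for NEAT1, -0.027 to 0.68 for MALAT1 and -0.26 to 0.19 for GAS5. Over all genes, the 0 called for the mimic by edgeR became 46 in LNCaP without a filter, 2 in LNCaP, 4 in 22Rv1 and 3 for the interaction by DESeq2, 1, 2 and 2 by limma, and 4 in 22Rv1 without replicate 3. By the authors' cut-offs the 0 lncRNAs became 2 in LNCaP without replicate 3 of NC-mimic, and for the interaction 1 without replicate 1 of 22Rv1 with NC-mimic (PCAT1) and 1 by limma (DRAIC). The shares of all genes that met the cut-offs in these fits were not computed. The counts of H19 in LNCaP and of PCGEM1 in 22Rv1, at most 7 and 2 per library, limit what can be said of the mimic there.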
